A study of Mus musculus with 7 samples.

Results

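The 9 mature strands described here are those of miR-219 and miR-338, a pair of microRNA families linked to oligodendrocytes, the glia that make myelin in the central nervous system. They were taken by name: 7 of miR-219 (mmu-miR-219a-5p, mmu-miR-219a-1-3p, mmu-miR-219a-2-3p, mmu-miR-219b-5p, mmu-miR-219b-3p, mmu-miR-219c-5p and mmu-miR-219c-3p) and the 2 arms of miR-338 (mmu-miR-338-5p and mmu-miR-338-3p). The species prefix is left out from here on. All 9 were found in both deposited tables, among 1908 mature miRNA rows in each. The study measured small RNAs in 7 libraries of mouse embryonic spinal cells sorted by fluorescence. At E10.5, embryos carrying Hb9::gfp gave 2 libraries of GFP-positive motoneurons and 2 of GFP-negative spinal cells, so both groups carried the same reporter and the GFP-negative group held every cell that did not express it. At E12.5 there was 1 library each of Hb9::gfp GFP-positive motoneurons, of V2a interneurons (Chx10::cre;Rosa26::LSL::tdTomato, tdTomato positive) and of V3 interneurons (Sim1::cre;Rosa26::LSL::tdTomato, tdTomato positive). GFP there reports a promoter, while the Cre-dependent tdTomato also marks the descendants of cells that once expressed the Cre. None of the libraries was sorted for oligodendrocytes or their precursors, and the small RNA tables hold no messenger RNA by which such cells could be counted.

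A microRNA gene is transcribed as a hairpin, and either arm of the hairpin, 5p or 3p, can be cut out and loaded into an Argonaute protein, which it guides to messenger RNAs through its seed, bases 2 to 8. miR-219 and miR-338 are best known from the mature nervous system, where they accumulate as oligodendrocyte precursors differentiate and repress factors that keep those precursors immature. Mir338 lies within Aatk, a kinase gene expressed in neurons, so miR-338 has also been studied in neurons and axons.

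The mature sequences are shown because their pairing decides what the rows can measure. RefSeq (GRCm38.p6) held 8 of the 9, given here 5′ to 3′ with the seed in capitals.
miR-219a-5p: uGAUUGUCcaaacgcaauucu
miR-219b-3p: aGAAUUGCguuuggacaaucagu
miR-219c-3p: cGAGAAUUgcguuuggacaauc
miR-219a-1-3p: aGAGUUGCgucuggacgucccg
miR-219c-5p: gGACGUCCagacgcaacucucg
miR-219b-5p: aGAUGUCCagccacaauucucg
miR-338-5p: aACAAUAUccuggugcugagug
miR-338-3p: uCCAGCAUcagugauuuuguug
No seed was shared: the 8 sequences had 8 different ones. miR-219a-2-3p comes from the 3′ arm of the Mir219a-2 hairpin, shown whole with miR-219a-5p and the stretch opposite miR-219b-5p in capitals.
Mir219a-2 hairpin: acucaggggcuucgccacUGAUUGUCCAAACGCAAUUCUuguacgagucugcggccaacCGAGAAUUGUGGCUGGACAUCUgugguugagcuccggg

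miR-219a-5p can be cut from either of 2 hairpins, while each 3p strand belongs to 1 of them. In GRCm38, Mir219a-2 is on the minus strand at chr2:29845631-29845727, outside annotated genes and 629 bp from Urm1, which runs on the opposite strand. Mir219a-1 is on the minus strand at chr17:34024983-34025092, in an exon of the long non-coding RNA Gm26940 and 303 bp from Ring1, a Polycomb gene. Mir219b (chr2:29845647-29845711) and Mir219c (chr17:34025012-34025071) are annotated on the plus strand of the same places, as antisense copies of Mir219a-2 and Mir219a-1. Mir338 (chr11:120014765-120014862, minus strand) is in an intron of Aatk and on the same strand as that gene. Mir3065 (chr11:120014767-120014853, plus strand) is its antisense copy.

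As a result, sense and antisense names describe almost the same duplex. All 21 bases of miR-219a-5p can pair with miR-219b-3p without a gap, and 20 with miR-219c-3p. miR-219a-1-3p and miR-219c-5p have a complementary run of 20 bases. The deposited E10.5 table puts rows into bundles, and its bundles followed this pairing: miR-219a-5p, miR-219b-3p and miR-219c-3p formed one, miR-219a-2-3p and miR-219b-5p another, and miR-219a-1-3p and miR-219c-5p the third. The 2 arms of miR-338 stood alone. Of 24 pairs of mature sequences in the table that overlap by at least 15 bases on opposite strands, 16 lay in the same bundle. Whether the counting used the strand of a read is not given in the sources used here.

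In the miR-219a-5p and miR-219a-1-3p bundles, single rows held fractions of reads and their sums held whole reads. In the motoneuron libraries, miR-219a-5p stood at 166.16 and 70.58 reads and miR-219b-3p at 166.16 and 142.16, while the 3 rows together summed to 494 and 279 reads. In the GFP-negative libraries the same sum was 216 and 137 reads. Over the 7 libraries, the 14 sums of this bundle and of the miR-219a-1-3p bundle lay within 0.01 of a whole number. The estimated reads of the far larger miR-219a-2-3p bundle, 5621.92 to 21091.3 per E10.5 library, were not whole. The sums are therefore reported beside the rows as the miR-219a-5p group, the miR-219a-1-3p group and the miR-219a-2-3p group.

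The split between rows differed more than the sums did. miR-219a-5p and miR-219b-3p had the same value in 3 of the 4 E10.5 libraries, 207 RPM (miRNA reads scaled to a common total) in motoneuron replicate 1 and 95.39 and 86.02 in the GFP-negative libraries. In motoneuron replicate 2 they stood at 143.1 and 288.23 RPM. miR-219a-5p thus held 33.6%, 25.3%, 34.3% and 33.8% of its group at E10.5, but 79.2% in E12.5 motoneurons, 30.8% in V2a and 72.0% in V3. miR-219b-5p held 21.9% to 27.8% of the miR-219a-2-3p group in the E10.5 libraries, but only 1.08% to 1.35% in the later ones. Stage and table cannot be told apart in that contrast, since the 2 tables were made separately.

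**Figure D1:**
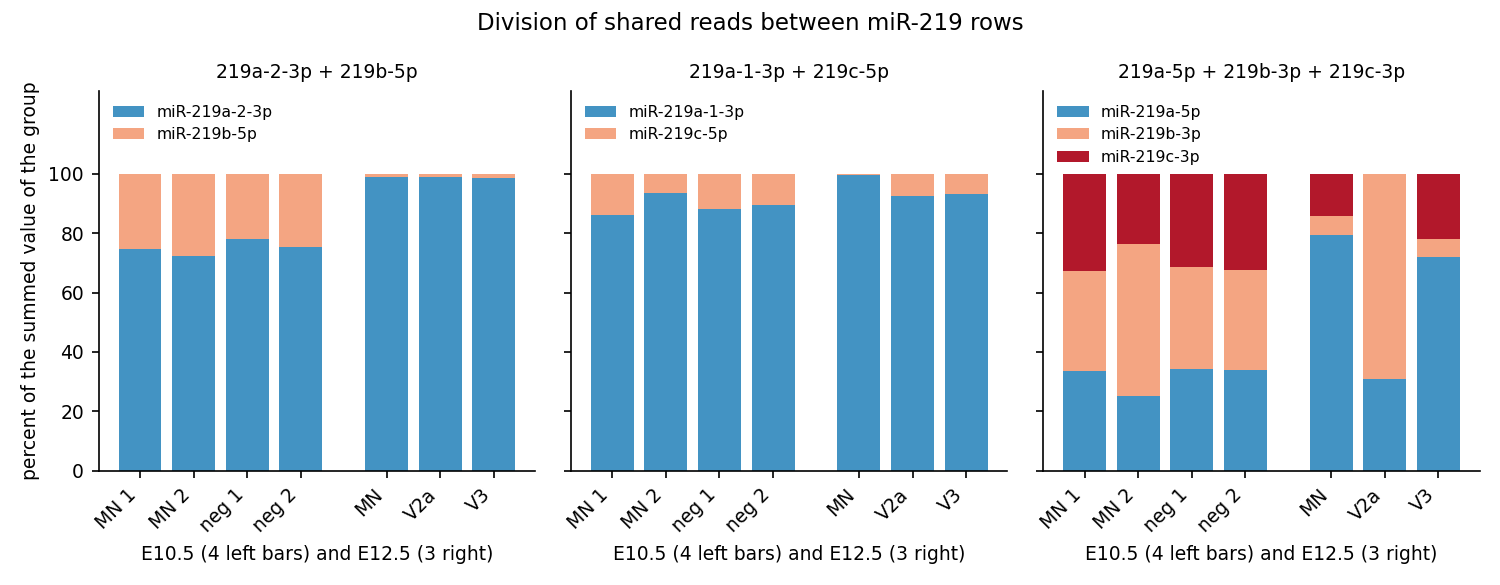
Percent of each group of rows that share reads (y axis) held by each row, as stacked bars for the 4 E10.5 libraries (MN, motoneurons; neg, GFP-negative) and the 3 E12.5 libraries. miR-219b-5p takes 21.9% to 27.8% of its group in the 4 earlier libraries and 1.08% to 1.35% in the 3 later ones, and miR-219b-3p takes 69.2% of its group in V2a.

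Depths were 493228 to 802724 reads per E10.5 library and 3603557 to 4605433 per E12.5 library. The labels were checked on miR-218-5p, the motoneuron miRNA of the series title, which stood at 177885 and 200305 RPM in motoneurons against 6623 and 7315 in GFP-negative cells. At E12.5 it was at 104198 TPM (the equivalent corrected for length) in motoneurons, 7558 in V2a and 7282 in V3. The GFP-negative libraries also held 84526 and 96666 RPM of 10 mesenchymal and muscle miRNAs, all of them detected, against 1892 and 544 RPM in motoneurons. The labels do not tie replicates to different litters or sorting days; p-values measure only how far these libraries differ, which may be technical. In bulk libraries of this kind, fewer cells of a type and less RNA per cell cannot be told apart.

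The first comparison asked how the 9 strands stood in motoneurons against the GFP-negative cells at E10.5. miR-219a-2-3p, the most abundant of them, was at 19596 and 17569 RPM in motoneurons and 9128 and 7858 RPM in GFP-negative cells. It ranked 9 and 10 among all miRNAs in the motoneuron libraries and 22 and 26 in the GFP-negative ones. Both motoneuron libraries lay above both GFP-negative libraries. Measured as the difference of log2(RPM + 1), the change was 1.13 (SE 0.15, limma adjusted p = 0.00162). miR-219b-5p, its antisense partner, was at 6679 and 6768 RPM against 2557 and 2579, or 1.39 on the same log2 scale (SE 0.14, limma adjusted p = 0.000557). Their replicates differed little: the sum of the 2 rows was 26275 and 24337 RPM in motoneurons and 11685 and 10437 RPM in GFP-negative cells. With rows of each bundle summed over the whole table, this group was higher by 1.20 (log2; SE 0.14, limma adjusted p = 0.00192).

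The miR-219a-5p group, which holds the strand with the seed usually called miR-219, was far less abundant and was also higher in motoneurons. Its sum was 615 and 566 RPM in motoneurons and 278 and 254 RPM in GFP-negative cells, with no overlap between the groups. On the log2 scale the sum differed by 1.15 (SE 0.19, limma adjusted p = 0.00568). Taken row by row, miR-219b-3p had 1.42 (SE 0.28, limma adjusted p = 0.00693), miR-219c-3p 0.95 (limma adjusted p = 0.044) and miR-219a-5p 0.92 (SE 0.30, limma adjusted p = 0.0448). The calls of the last 2 rows were fragile. Without motoneuron replicate 1, miR-219a-5p had 0.65 (limma adjusted p = 0.165) and miR-219c-3p 0.66 (0.161). Without GFP-negative replicate 2 they had 0.84 (limma adjusted p = 0.0954) and 0.91 (0.0808), and without GFP-negative replicate 1 miR-219c-3p had 0.99 (0.0531). The sum kept its call with each of the 4 libraries left out, at 1.08 to 1.21. The sum of the miR-219a-2-3p group did so too, at 1.11 to 1.28.

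The miR-219a-1-3p group, specific to the hairpin near Ring1, overlapped between the populations. miR-219a-1-3p itself was at 236 and 571 RPM in motoneurons and 166 and 262 RPM in GFP-negative cells, so motoneuron replicate 1 lay below GFP-negative replicate 2. Its log2 fold change of 0.81 (SE 0.44) missed the threshold (limma adjusted p = 0.182). That call depended on the libraries and the scaling. The row passed without motoneuron replicate 1 (1.45, limma adjusted p = 0.0399), without GFP-negative replicate 2 (1.14, limma adjusted p = 0.0453) and with the 5 most abundant miRNAs left out of the totals (1.19, limma adjusted p = 0.0427), and stood at 0.17 without motoneuron replicate 2. miR-219c-5p stood at 38.3 and 38.9 RPM against 22.7 and 31.2, without overlap, and also missed it (0.52, SE 0.37, limma adjusted p = 0.295). Their sum was 274 and 610 RPM in motoneurons and 189 and 293 RPM in GFP-negative cells (log2 fold change 0.79, SE 0.43, limma adjusted p = 0.187). Motoneuron replicate 2 carried most of that difference: without it the log2 fold change of the sum was 0.22, and without motoneuron replicate 1 it was 1.37 (limma adjusted p = 0.0407).

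**Figure D2:**
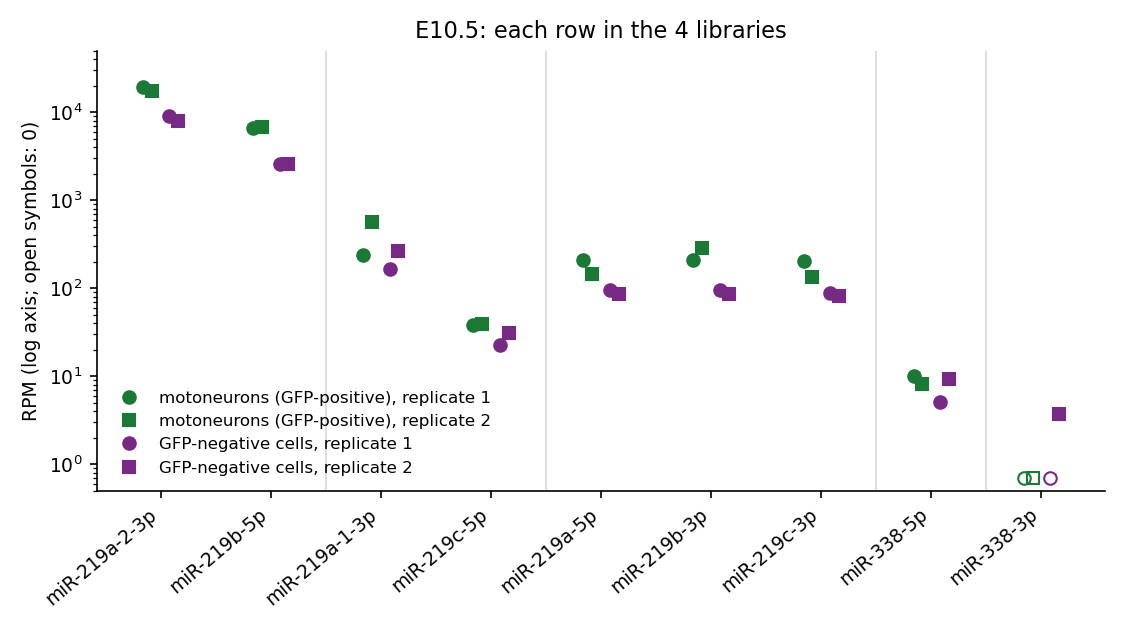
RPM (log axis) of each of the 9 rows in the 2 motoneuron and 2 GFP-negative libraries at E10.5, with open symbols for 0 and vertical lines between groups of rows that share reads. miR-219a-2-3p reaches 19596 RPM in motoneurons, while miR-338-5p stays under 10 RPM and miR-338-3p is at 0 in 3 of 4 libraries.

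Of the 7 rows that passed the abundance filter (15.2 RPM in 2 or more libraries, the worth of 10 reads in a library of median depth), 5 were higher in motoneurons and 0 lower. All 7 exceeded the filter in each of the 4 libraries. Among all 492 rows tested, 57 (11.6%) were higher and 151 (30.7%) lower, or 94 and 116 when scaled by the median of ratios. The 5 rows are not 5 independent measurements: with shared reads summed they are 2 groups called higher of 3 tested, against 10% of 420. Without overlap between the libraries, 6 of the 7 rows were higher, against 25% of all rows. The median log2 fold change was 0.95 over the 7 rows and -0.34 over all tested rows. Scaling by the median of ratios brought the median of all rows to -0.0038 and miR-219a-2-3p to 1.48. The GFP-negative libraries stood apart by their mesenchymal and muscle miRNAs. With these left out of the totals, miR-219a-2-3p had a log2 fold change of 0.996 (limma adjusted p = 0.0026). In that setting 3 of the 7 rows were called higher, against 43 of all 492.

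**Figure D3:**
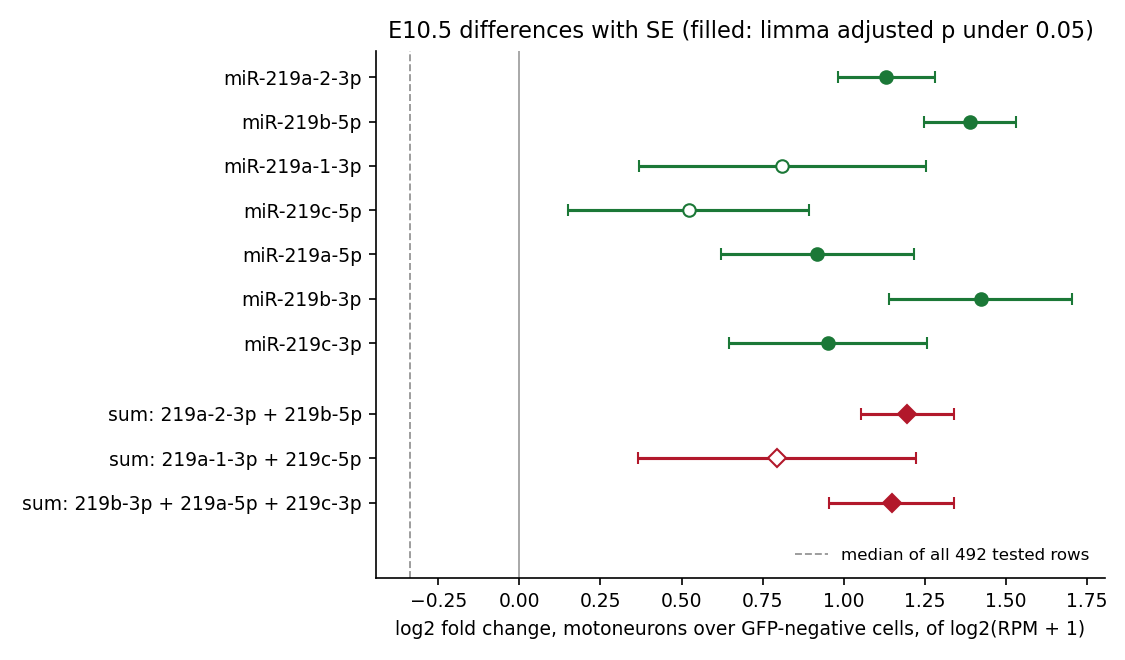
Log2 fold change at E10.5, motoneurons over GFP-negative cells (x axis), with its standard error, for the 7 tested rows (circles) and the 3 sums of rows that share reads (diamonds); filled symbols passed a limma adjusted p of 0.05 and the dashed line is the median of all tested rows. The sums of the miR-219a-2-3p and miR-219a-5p groups sit at 1.20 and 1.15, and the miR-219a-1-3p group has the wide error of 0.43.

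The ratio of 2 groups within a library does not depend on how the library was scaled. The miR-219a-2-3p group exceeded the miR-219a-5p group by 42.7-fold and 43.0-fold in the motoneuron libraries and by 42.1-fold and 41.0-fold in the GFP-negative ones. The 4 ratios span 41.0 to 43.0, so the 3p and 5p groups differed between the populations by nearly the same factor. Against the miR-219a-1-3p group, the ratio was 95.9 and 39.9 in motoneurons and 61.8 and 35.6 in GFP-negative cells. Replicate 1 gave the higher ratio in both populations, and the populations overlapped.

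**Figure D4:**
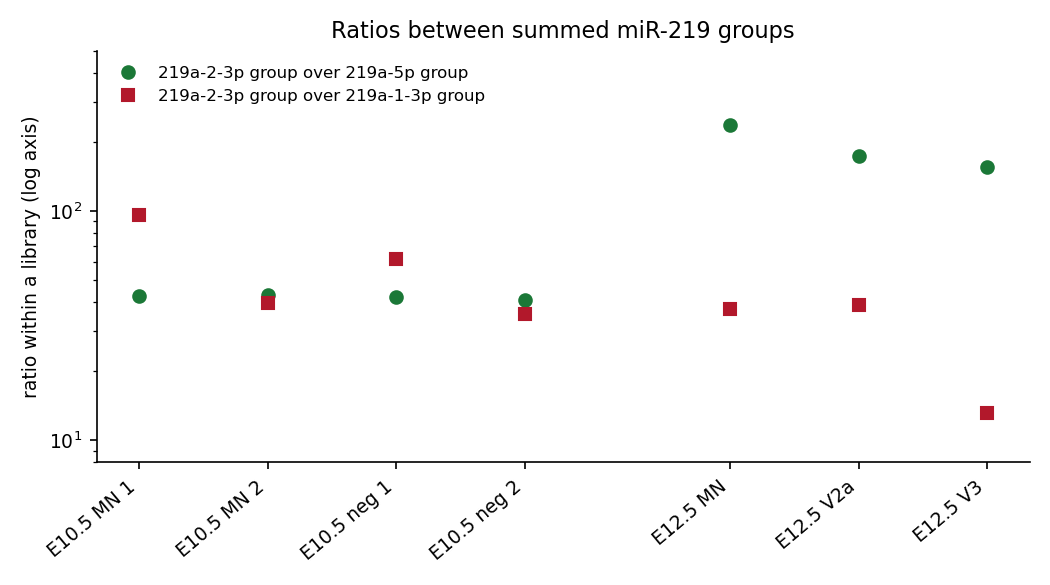
Ratio of the summed miR-219a-2-3p group to the miR-219a-5p group (circles) and to the miR-219a-1-3p group (squares) within each of the 7 libraries, on a log axis. The circles lie between 41.0 and 43.0 in all 4 E10.5 libraries and between 156 and 237 at E12.5, and the V3 square is lowest at 13.2.

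At E10.5 miR-338 was close to the limit of detection. miR-338-5p was at 9.97 and 8.11 RPM in motoneurons (8 and 4 reads) and 5.14 and 9.28 RPM in GFP-negative cells (4 and 5 reads), so the groups overlapped. miR-338-3p, the arm usually studied in oligodendrocytes, had no read in either motoneuron library or in GFP-negative replicate 1, and 2 reads (3.71 RPM) in GFP-negative replicate 2. With 0 reads counted, levels of up to 3 reads remain possible, for counting error only. That is 3.74 to 6.08 RPM in the libraries without a miR-338-3p read. A difference in miR-338 was not detectable at this depth, and both arms were below the filter.

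The second comparison set motoneurons beside V2a and V3 interneurons at E12.5, with 1 library each and hence no replicate check. miR-219a-2-3p again held most of the 9 rows' reads. It stood at 5519 TPM in the motoneuron library, 6080 in V2a and 3708 in V3, ranking 25, 18 and 29 among all miRNAs. The V2a library was 1.64-fold above V3 (95% counting interval 1.61 to 1.67). Motoneurons were 1.49-fold above V3 on this scale, a log2 ratio of 0.57, which became -0.26 with the 5 most abundant miRNAs left out of the totals. Between motoneurons and V2a the log2 ratio was -0.14, or 0.02 with the median of ratios. The order of motoneurons relative to either interneuron library therefore depended on the scaling, while V2a lay above V3 under each of the 3 scalings (log2 ratios of 0.71, 0.31 and 0.52).

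The miR-219a-1-3p row ran the other way. It was at 149 TPM in the motoneuron library, 147 in V2a and 266 in V3, so V3 was highest for this hairpin and, on this scale, lowest for miR-219a-2-3p. The log2 ratio of motoneurons over V3 was -0.84 and stayed below 0 under the other scalings (-1.08 and -1.67). Within a library, the miR-219a-2-3p group exceeded the miR-219a-1-3p group by 37.3-fold in motoneurons, 38.9-fold in V2a and 13.2-fold in V3.

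The remaining miR-219 rows were low. miR-219b-5p was at 60.1 TPM in the motoneuron library, 77.9 in V2a and 50.6 in V3. miR-219b-3p stood at 24.5 TPM in V2a against 1.52 in motoneurons and 1.44 in V3, and miR-219c-5p at 0.854 TPM in motoneurons against 11.7 in V2a and 19.9 in V3. miR-219c-3p had 12 reads in motoneurons, 22 in V3 and none in V2a, so motoneurons stood at 5.06 times the level of 3 reads in V2a, with a 95% counting interval of the ratio from 3.52 upward. miR-219a-5p was at 18.7, 10.9 and 17.3 TPM. Summed, the miR-219a-5p group was at 23.6 TPM in the motoneuron library, 35.4 in V2a and 24.0 in V3, from 81, 162 and 97 reads. The miR-219a-1-3p group was at 150, 158 and 285 TPM. Neither sum was 4-fold apart between any 2 libraries.

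miR-338-5p differed between the interneuron libraries. It stood at 41.1 TPM in motoneurons (146 reads), 75.4 in V2a (339 reads) and 12.7 in V3 (53 reads). V2a was 5.93-fold above V3 (95% counting interval 4.42 to 8.06) and motoneurons 3.23-fold above V3 (2.34 to 4.50). With the 5 most abundant miRNAs left out of the totals, the log2 ratio of motoneurons over V3 moved from 1.69 to 0.85, and that of V2a over V3 from 2.57 to 2.38. Each interval covers counting error only. miR-338-3p remained near 0, with 11 reads in motoneurons (3.10 TPM), 2.5 in V2a and 0 in V3. In V2a the same 2.5 reads stood in the row of miR-3065-5p, the antisense strand, which can pair with 21 bases of miR-338-3p. The ratio of motoneurons to V2a was 5.57. Its counting interval of 1.52 to 64.6 was taken on 11 against 2 reads, with the 2.5 rounded down. Motoneurons stood at 4.29 times the level of 3 reads in V3, with a counting interval of that ratio from 2.94 upward. These few reads do not show that miR-338-3p was 4-fold apart. Between its own arms, miR-338-5p exceeded miR-338-3p by 13.3-fold in motoneurons and 136-fold in V2a, and V3 had 53 reads against 0. These ratios rest on the 11 and 2.5 reads of miR-338-3p, so their difference between the libraries is uncertain.

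**Figure D5:**
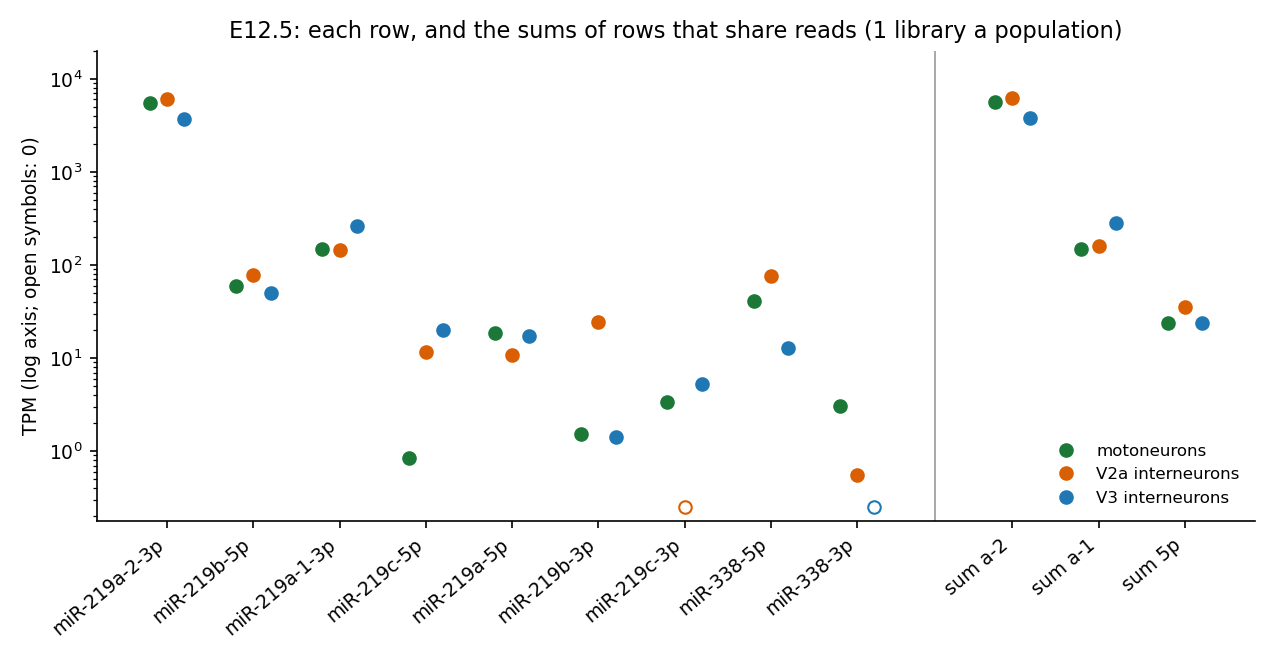
TPM (log axis) of the 9 rows, and to the right of the line the sums of the miR-219a-2-3p (sum a-2), miR-219a-1-3p (sum a-1) and miR-219a-5p (sum 5p) groups, in the single E12.5 library of each population, with open symbols for 0. miR-219b-3p runs from 1.44 to 24.5 TPM while the sum of its group runs from 23.6 to 35.4; miR-338-5p runs from 12.7 TPM in V3 to 75.4 in V2a.

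Counted by their point values, 4 of 9 rows were at least 4-fold apart between motoneurons and V2a, where 20.7% of 955 rows were. Between motoneurons and V3 there were 2 of 8 (background 22.3%), and between V2a and V3 3 of 8 (background 23.3%). With shared reads summed, 1 of 5 was apart in the first contrast (20.7%) and 1 of 5 in the second (22.3%), both times miR-338-3p. In the third it was 1 of 4 (23.9%), miR-338-5p. The sums followed the E10.5 bundles, which keep miR-338-3p apart from its antisense strand miR-3065-5p. In V2a each of these 2 strands had 2.5 reads, so the count of miR-338-3p in the first contrast also depends on that split. A row entered a count when it reached 10 reads in 1 of the 2 libraries, and values under 3 reads were set to 3 reads.

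Side by side, the 9 rows together made up 2.72% and 2.55% of the E10.5 motoneuron libraries, 1.22% and 1.10% of the GFP-negative ones, and 0.580%, 0.643% and 0.408% of the E12.5 motoneuron, V2a and V3 libraries. The miR-219a-2-3p group made up 92.1% to 96.7% of that in every library. The ratio of the miR-219a-2-3p group to the miR-219a-5p group was 237 in E12.5 motoneurons, 174 in V2a and 156 in V3, against 41.0 to 43.0 in the 4 E10.5 libraries. miR-338-5p had more reads than the miR-219a-5p group in E12.5 motoneurons and V2a, and far fewer in every E10.5 library. None of these contrasts between stages was tested, because the tables were scaled and made separately.

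Other miRNAs reported in oligodendrocyte precursors, in their differentiation or in its control differed in direction among themselves. Of 17 listed, 16 were tested at E10.5, of which 3 were higher and 9 lower in motoneurons, with a median log2 fold change of -1.36. Over all 492 tested rows, 11.6% were higher and 30.7% lower, and the median was -0.34. With shared reads summed, 2 of 14 on the list were higher and 7 lower, against 10% and 29.5% of 420. The higher ones were miR-124-3p, a neuronal miRNA, which was at 445 and 306 RPM against 95.2 and 74.3 (log2 fold change 2.12), followed by miR-7b-5p (0.59) and miR-7a-5p (0.49), both in bundles of several rows. The counts of the list changed with a library left out. Such fits leave 1 library in a group and can test fewer of the list, 13 without either GFP-negative replicate. The lower ones ran from miR-19b-3p (-1.22) and miR-17-5p (-1.50), which promote precursor proliferation, to miR-145a-5p (-4.44) and miR-199a-5p (-6.66). The last 2 are also on the mesenchymal list, and the part of those cells in the falls was not tested. Among the lower rows, all but miR-145a-5p and miR-155-5p lay in bundles of several rows. miR-9-5p had 0.38 (limma adjusted p = 0.124) and miR-138-5p -0.15 (0.814). At E12.5, 20.7% to 23.3% of all rows were at least 4-fold apart, depending on the contrast. Of the list these were miR-7b-5p, miR-23b-3p and miR-199a-5p. miR-7b-5p was at 357 TPM in motoneurons, 8.94 times its level in V3. miR-23b-3p was at 7.54 TPM in the motoneuron library, 1.63 in V2a and 0.252 in V3. The V3 value lay below the level of 3 reads (0.721 TPM), and against that level the ratio of motoneurons was 10.45. miR-199a-5p was at 16.0 TPM in V2a and 66.7 in V3. Each of these rows lies in a bundle of 2 rows, so its contrast also depends on how shared reads were divided. Of related rows, also in bundles of 2, miR-7a-5p was only 1.81-fold higher in motoneurons than in V3. The ratio of motoneurons to V2a for miR-23a-3p was 0.36, in the other direction from miR-23b-3p. Sums of these bundles are not given here.

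Patterns over the 7 libraries were compared by the Euclidean distance of log2(value + 1), centred within each table, among 402 other miRNAs measured at both stages. The nearest to miR-219a-2-3p was miR-296-3p, at a distance of 0.28 against a median of 1.90. miR-296-3p was at 10483 and 8231 RPM in E10.5 motoneurons and 4665 and 3862 in GFP-negative cells, then 3769, 3378 and 2070 TPM in E12.5 motoneurons, V2a and V3. miR-466a-3p and miR-466e-3p followed (0.31 each), which have the same values and lie in bundles of 6 rows. For miR-219a-5p, whose row is uncertain as described, the nearest were miR-669o-5p (0.24), miR-467c-5p (0.35) and miR-330-3p (0.46).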

How the data were processed

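The members and lists were chosen with earlier results of these data known. Of tools, the submitters' processing notes name Bowtie2. Counting program, build and miRNA annotation: not given in the sources used here. Values at E10.5 are RPM as deposited by the authors. The E12.5 table names no unit; its values, as deposited by the authors, were read as FPKM, because the commonest low values times the RefSeq mature length gave 1 step per library. Scaled to the same total as the RPM they are TPM. One read was taken as that step (length 22 nt where RefSeq gave none). In single-row bundles, 97.3% to 100% of low E10.5 values lay within 0.05 of a whole read, and 75.9% to 81.9% at E12.5.

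The E10.5 fit used limma 3.58.1 under R 4.3.3 (mean-variance trend, two-sided, pseudocount 1, Benjamini-Hochberg over all rows tested, threshold 0.05), and the script was tested on simulated data. E12.5 ratios have exact conditional counting intervals. All 9 members are named, with list members that were called and the 3 nearest patterns of miR-219a-2-3p and miR-219a-5p. Alternatives varied the pseudocount, filter, scaling, trend, replicate block, shared reads and libraries.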

Additional observations from a re-analysis of the deposited data

How the results depend on the processing

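At E10.5, the log2 fold changes of the summed miR-219a-2-3p and miR-219a-5p groups passed the threshold under all 14 alternatives run on them (chosen after seeing the data). The summed miR-219a-1-3p group passed without motoneuron replicate 1 (leave-one-out range 0.22 to 1.37) and with the 5 most abundant miRNAs left out of the totals (1.22). Of single rows, miR-219a-5p missed the threshold with only all-zero rows removed (0.92, limma adjusted p = 0.0844), without a trend (0.92, limma adjusted p = 0.0543), with mesenchymal and muscle markers left out of the totals (0.78, chosen after seeing the data) and without some libraries (leave-one-out range 0.65 to 1.18). Member rows called higher were 3 of 9 with only all-zero rows removed, against 34 of 1270 over all miRNAs. They were 3 of 7 without a trend (51 of 492 over all) and 3 of 7 without those markers (43 of 492 over all). With bundles summed, 2 of 3 groups were higher (42 of 420 over all). In the first 3 of these settings the other oligodendrocyte-lineage list had 1 higher, of 17, 16 and 16 tested. Left-out libraries gave that list 1 to 3 higher and 5 to 8 lower. Over all miRNAs, the higher count was 34 with only all-zero rows removed, 94 with the median of ratios, 105 without the 5 most abundant and 114 with quantile normalization (100 lower), and 27 to 48 with a library left out, when fewer rows are also tested. The cause of the other changes was not tested.

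With the replicate number as a block, 6 of 7 rows were higher (67 of all miRNAs higher, 162 lower), miR-219a-1-3p was called (limma adjusted p = 0.0376), and the sums had limma adjusted p = 0.00811, 0.011 and 0.051 for miR-219a-2-3p, miR-219a-5p and miR-219a-1-3p. Deviations of same-numbered libraries had a correlation of 0.26 across 492 miRNAs; the labels do not say that the numbers pair samples.

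At E12.5, member rows 4-fold apart between motoneurons and V2a were 2 without the 5 most abundant miRNAs, 1 with bundles summed and 0 with a pseudocount of 10. Against V3 they were 1 with the median of ratios, 1 without the 5 most abundant, 1 summed and 0 with the pseudocount; between V2a and V3, 1 summed and 0 with the pseudocount. Shares over all rows were taken only for the main setting and for summed bundles. How the other counts stand against all rows was therefore not tested. Summing reversed miR-219c-3p, to -0.59 (motoneurons over V2a) and 0.56 (V2a over V3).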

Other observations

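miR-3065, annotated on the strand opposite Mir338, had no read in any E10.5 library. Of its E12.5 values, miR-3065-3p was at 1.08 TPM in the motoneuron library, 0.243 in V3 and 0 in V2a, and miR-3065-5p at 0.556 TPM in V2a and 0 elsewhere. The E10.5 table puts miR-3065 and miR-338 into separate bundles, although miR-3065-5p and miR-338-3p overlap by 21 bases.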
